A study of Rattus norvegicus with 12 samples.

Results

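The fibrotic scar matrix genes described here are Col1a1, Col1a2, Col3a1, Fn1, Sparc and Mmp2, 6 of the 32883 genes in a table of counts from rat spinal cord. They were chosen by a fixed list of Ensembl identifiers: ENSRNOG00000003897 for Col1a1, ENSRNOG00000011292 for Col1a2, ENSRNOG00000003357 for Col3a1, ENSRNOG00000014288 for Fn1, ENSRNOG00000012840 for Sparc and ENSRNOG00000016695 for Mmp2. All 6 identifiers were in the table, and 5 of the 6 genes had enough counts to be tested. The pairing of identifiers with symbols came with the list and was not checked here against a reference.

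The animals were Sprague Dawley rats, an outbred stock, and the tissue was spinal cord at the ninth thoracic level (T9). The 3 groups had 4 libraries each: cord with no spinal cord injury, cord 5 days after a T9 hemisection, which cuts through 1 side of the cord, and cord 5 days after the same injury from animals given epidural electrical stimulation over L2 to S1. These groups are called uninjured, injured and stimulated. The injured and stimulated groups share the hemisection and by their labels differ in the stimulation, which was applied below the level that was measured. The labels do not give age, sex, the stimulation schedule, whether uninjured animals had any surgery, or how libraries map to animals, so the tests measure the spread between these libraries.

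After a penetrating injury of the spinal cord, fibroblast-like cells of the meninges and of the vessel walls fill the lesion core with extracellular matrix, which forms the fibrotic scar inside a border of reactive astrocytes. Fibrillar collagens give this matrix its tensile fibers, fibronectin forms an early provisional network on which collagen is laid down, SPARC is a secreted protein that binds collagen and calcium, and the gelatinase MMP2 cleaves denatured collagen and other matrix proteins. The scar matrix is known as a barrier to regrowing axons and as a seal for the lesion.

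Counts came from CEL-Seq2, which tags the 3' end of polyadenylated RNA, so a count is not divided by gene length. Library totals ran from 204836 to 553986 counts. The totals of the 4 stimulated libraries (204836 to 306186) were all below those of the 4 injured ones (399386 to 553986). The first principal component of log2 expression, with 52.4% of the variance, put the uninjured libraries between -56.9 and -47.4 and injured replicate 1 at -0.02, between them and the other injured and stimulated libraries (20.2 to 34.4). The second component, with 17.2%, split each group into pairs, with uninjured replicates 2 and 3, injured replicates 1 and 3 and stimulated replicates 1 and 3 on its positive side. Levels below are CPM, counts scaled to a common library size, with TMM factors that correct for differences in library composition.

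Of the 5 scar matrix genes tested, 4 rose in injured cord: Col1a1, Col3a1, Fn1 and Sparc (adjusted p under 0.05 by the quasi-likelihood test of edgeR, with Benjamini-Hochberg adjustment over 5285 genes). In the same comparison 16.8% of all genes tested rose. The same 4 passed the test in stimulated against uninjured cord, where 18.3% of genes tested rose, and none of the 5 passed between stimulated and injured cord. The median log2 fold change of the 5 genes was 2.60 in injured and 3.04 in stimulated cord, each against the same uninjured libraries. Over all genes tested the medians were -0.004 and 0.01. Without injured replicate 1, the library nearest to uninjured cord, the same 4 genes were called in injured cord, with log2 fold changes of 3.33 for Col1a1, 2.72 for Col3a1, 3.44 for Fn1 and 0.80 for Sparc (edgeR). In tissue samples such as these, more cells that make a transcript and more RNA per cell cannot be told apart.

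**Figure D1:**
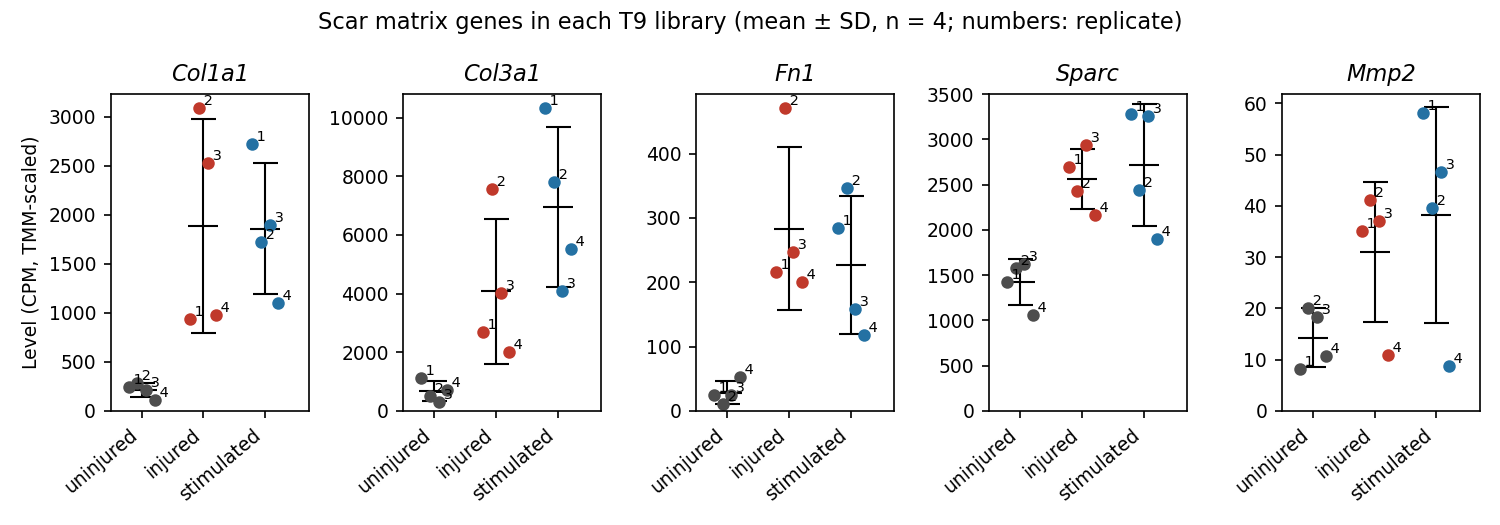
Level of 5 scar matrix genes (CPM, linear axes from 0) in each of the 12 libraries by group, with replicate numbers beside the points and bars for the mean ± SD (n = 4). The injured and stimulated points of Col1a1, Col3a1, Fn1 and Sparc all lie above the uninjured ones, while Mmp2 overlaps between groups.

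Col1a1 encodes the main chain of type I collagen, the most abundant fibrillar collagen of scars. Its level in uninjured replicates 1 to 4 was 248, 282, 214 and 113 CPM. In injured replicates 1 to 4 it was 941, 3090, 2531 and 981 CPM, and in stimulated replicates 1 to 4 it was 2719, 1727, 1892 and 1103 CPM. Every injured and stimulated library was above every uninjured one, and the injured group fell into a high pair (replicates 2 and 3) and a low pair (replicates 1 and 4).

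Col1a1 rose from 214 ± 72.8 CPM in uninjured to 1886 ± 1092 CPM in injured cord (SD, n = 4), a fitted fold of 8.74 (log2 fold change 3.13, SE 0.44, adjusted p = 7.46e-05 by edgeR). In stimulated cord it was at 1860 ± 666 CPM, a fold of 8.64 over uninjured cord (log2 fold change 3.11, SE 0.44, adjusted p = 6.54e-05 by edgeR). By count, it ranked between 647 and 1601 among all genes of an uninjured library. Its rank was between 23 and 140 in the injured libraries and between 44 and 110 in the stimulated ones. It therefore stood among the 140 most counted genes of each of these 8 libraries.

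Col3a1 encodes type III collagen, a fibrillar collagen laid down early in wounds beside type I. Its level in uninjured replicates 1 to 4 was 1132, 523, 318 and 721 CPM. It was 2705, 7575, 4027 and 2010 CPM in injured replicates 1 to 4, and 10326, 7813, 4100 and 5521 CPM in stimulated replicates 1 to 4. No injured or stimulated library overlapped with the uninjured ones, and injured replicate 2 was the highest of its group for Col3a1 as for Col1a1.

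Col3a1 rose from 674 ± 347 CPM to 4079 ± 2476 CPM in injured cord, a fold of 6.05 (log2 fold change 2.60, SE 0.46, adjusted p = 0.000449 by edgeR). In stimulated cord it was at 6940 ± 2727 CPM, a fold of 10.3 over uninjured cord (log2 fold change 3.37, SE 0.47, adjusted p = 5.24e-05 by edgeR). By count it ranked between 6 and 33 in the injured libraries and between 5 and 22 in the stimulated ones, against 104 to 573 in uninjured cord.

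Col3a1 was also the member nearest to a common upper limit of the counts. No count in any library was above 4094, just under 4096, the number of different molecular identifiers that 6 bases allow. Col3a1 had 3123 counts in injured replicate 2, which is 76.2% of 4096, and 2371 in stimulated replicate 2, which is 57.9%. If that limit comes from identifiers, 3123 counts stand for 5888 molecules once identifiers drawn more than once are allowed for. On counts corrected in this way, an alternative chosen after the data were seen, the log2 fold change of Col3a1 was 3.14 in injured and 3.74 in stimulated cord (adjusted p = 0.000579 by edgeR and 0.000135). For Col1a1 the corrected values were 3.28 and 3.18, so both collagens kept their calls. The 2 fold changes were closer together than in the counts as deposited for injured cord and farther apart for stimulated cord. The sources used here do not say whether identifiers were collapsed.

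Col1a2 encodes the partner chain that assembles with the Col1a1 product into type I collagen. It had 1 count in injured replicate 2, 1 count in injured replicate 4 and none in the other 10 libraries. The same libraries held 1274 and 626 counts of Col1a1. In injured cord the 2 counts among 1863661 gave 1.07 CPM without TMM factors, with an exact Poisson interval of 0.13 to 3.88 that covers counting error only. With a limit of 3 counts per group, none of 1329217 counts in uninjured cord allows up to 2.26 CPM, and none of 1040994 in stimulated cord allows up to 2.88 CPM. The upper ends of the exact Poisson intervals there were 2.78 and 3.54 CPM. Col1a2 was too low to be tested in the main fit, no fold is given, and the rise of its partner chain had no counterpart in the counts under its identifier. The sources used here do not name the annotation that set which bases were counted for this identifier.

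The RefSeq promoter table held 2 of the 6 genes, Col1a2 and Sparc. The 250 bases before their annotated starts are shown because these 2 were the only members with a promoter window. Both are on the gene's own strand, from 5' to 3', in build GRCr8 (chr4:33518307-33518556, plus strand, and chr10:40038817-40039066, minus strand). Capitals mark matches on either strand to the TATA box TATAAA, the CCAAT box, the GC box GGGCGG, the AP-1 site TGANTCA or the SMAD element CAGAC; no matches overlap.
Col1a2: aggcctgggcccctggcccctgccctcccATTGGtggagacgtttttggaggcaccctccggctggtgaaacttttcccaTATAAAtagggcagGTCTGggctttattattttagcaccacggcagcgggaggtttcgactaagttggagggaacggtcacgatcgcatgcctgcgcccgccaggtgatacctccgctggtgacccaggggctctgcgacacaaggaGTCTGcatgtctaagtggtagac
Sparc: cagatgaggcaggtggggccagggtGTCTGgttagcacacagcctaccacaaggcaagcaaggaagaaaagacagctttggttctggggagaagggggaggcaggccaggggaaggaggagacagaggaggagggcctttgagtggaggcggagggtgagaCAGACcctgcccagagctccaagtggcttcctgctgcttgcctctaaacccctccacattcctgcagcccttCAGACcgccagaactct

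The Col1a2 window held 1 TATA box on its own strand, 1 CCAAT box on the opposite strand and 2 SMAD elements on the opposite strand. The Sparc window held 3 SMAD elements, 2 of them on its own strand, and no match to the other motifs. The SMAD element, a short sequence bound by effectors of the TGF-beta pathway, occurred in 42.9% of 33465 windows of this length, the CCAAT box in 34.0% and the TATA box in 12.9%. The GC box and the AP-1 site, found in 30.5% and 6.34% of all windows, had no match in either. These matches are descriptions of the letters, and the counts say nothing of binding there.

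Fn1 encodes fibronectin, the adhesive glycoprotein of the provisional matrix. Its counts were low in uninjured cord: replicates 1 to 4 had 6, 5, 8 and 15 counts, or 24.4, 11.2, 24.4 and 53.1 CPM. In injured replicates 1 to 4 it was at 216, 471, 246 and 201 CPM. In stimulated replicates 1 to 4 it was at 285, 346, 158 and 118 CPM. The lowest stimulated library still had more than the highest uninjured one, and injured replicate 2 again stood highest in its group.

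Fn1 rose from 28.3 ± 17.7 CPM to 283 ± 126 CPM in injured cord (SD, n = 4), a fold of 10.2 (log2 fold change 3.35, SE 0.47, adjusted p = 6.75e-05 by edgeR). In stimulated cord it was at 227 ± 107 CPM, a fold of 8.23 over uninjured cord (log2 fold change 3.04, SE 0.48, adjusted p = 0.000132 by edgeR). The Fn1 level in uninjured cord rests on 34 counts over 4 libraries. Leaving out uninjured replicate 4 gave it a log2 fold change of 3.84 in injured cord, and leaving out injured replicate 2 gave 3.0. With each library left out in turn, its adjusted p by edgeR was at most 0.000429 in injured and 0.000695 in stimulated cord.

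Sparc encodes a matricellular glycoprotein that binds collagen and that glia and endothelium of the healthy central nervous system also make. It was already high in uninjured cord, at 1420, 1579, 1628 and 1065 CPM in replicates 1 to 4. It was at 2700, 2433, 2933 and 2168 CPM in injured replicates 1 to 4 and at 3278, 2445, 3257 and 1896 CPM in stimulated replicates 1 to 4. The groups did not overlap with uninjured cord, but the distance was small: 1628 CPM was the highest uninjured and 1896 CPM the lowest stimulated value.

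Sparc rose from 1423 ± 255 CPM to 2558 ± 331 CPM in injured cord (SD, n = 4), a fold of 1.79 (log2 fold change 0.84, SE 0.27, adjusted p = 0.0223 by edgeR). In stimulated cord it was at 2719 ± 672 CPM, a fold of 1.91 (log2 fold change 0.93, SE 0.27, adjusted p = 0.012 by edgeR). Both calls depended on single libraries. The first was lost without uninjured replicate 1 (adjusted p = 0.0505 by edgeR), uninjured replicate 4 (0.0619) or injured replicate 3 (0.0688). The second was lost without stimulated replicate 3 (adjusted p = 0.0513 by edgeR) and without a filter on low counts (0.0582). Over all alternatives run, the first adjusted p was 0.00315 to 0.0688 and the second 0.000622 to 0.0582.

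Within each group Sparc was higher in both libraries on the positive side of the second principal component than in the other pair. The values were 1579 and 1628 against 1420 and 1065 CPM in uninjured cord, 2700 and 2933 against 2433 and 2168 in injured cord, and 3278 and 3257 against 2445 and 1896 in stimulated cord. The part of this component in the levels of Sparc was not tested.

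Mmp2 encodes a gelatinase that is made by fibroblasts and activated at the cell surface. It was the lowest of the tested members, with 2, 9, 6 and 3 counts in uninjured replicates 1 to 4, 19, 17, 15 and 7 in injured replicates 1 to 4, and 11, 12, 13 and 2 in stimulated replicates 1 to 4. As levels these were 8.12 to 20.1 CPM in uninjured cord, 35.0, 41.2, 37.0 and 11.0 CPM in injured cord, and 58.1, 39.5, 46.7 and 8.72 CPM in stimulated cord. In both groups with injury, replicates 1 to 3 lay above all uninjured libraries and replicate 4 lay among them.

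Mmp2 did not pass the test in injured cord (31.1 ± 13.6 against 14.3 ± 5.83 CPM, SD, n = 4, log2 fold change 1.00, SE 0.53, adjusted p = 0.161 by edgeR). The 95% interval from the separate limma-voom fit of that comparison was -0.58 to 2.09. Mmp2 did not pass in stimulated cord either (38.3 ± 21.1 CPM, log2 fold change 1.32, SE 0.55, adjusted p = 0.0702 by edgeR, limma-voom interval -0.36 to 2.52). Leaving out stimulated replicate 4, its lowest library there, gave a log2 fold change of 1.65 and an edgeR adjusted p of 0.0182. Leaving out injured replicate 4, which is in neither group of that comparison but is part of the same fit, gave 0.0496. Over all alternatives run, its adjusted p in stimulated cord was 0.0182 to 0.279.

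**Figure D2:**
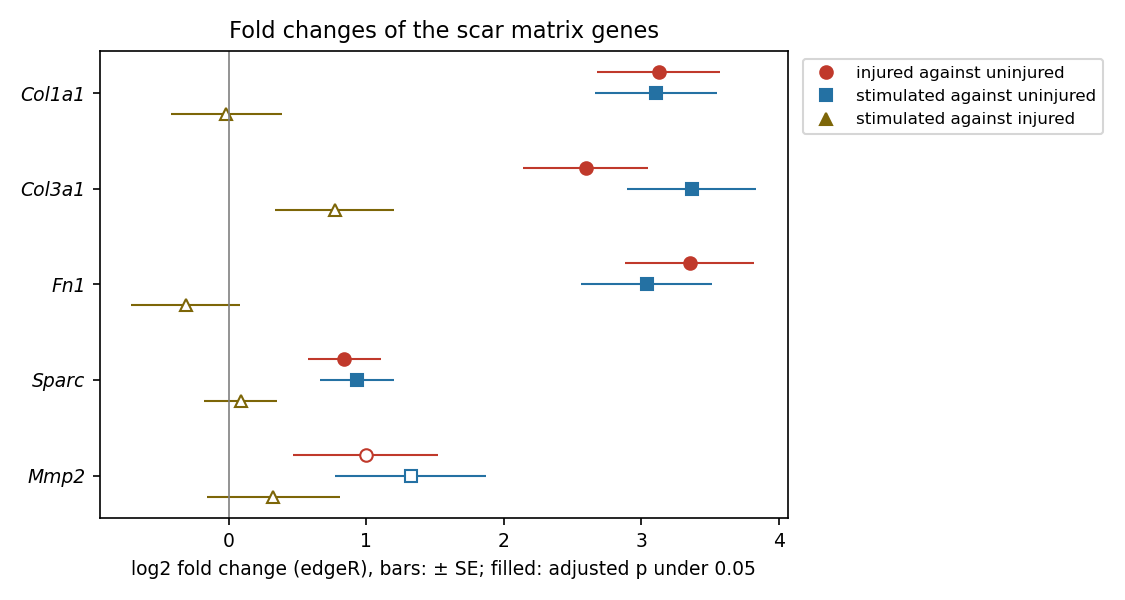
Log2 fold changes of the 5 tested genes in the 3 comparisons, with bars for ± SE and filled symbols for adjusted p under 0.05. Col1a1, Col3a1 and Fn1 lie between 2.60 and 3.37 against uninjured cord, Sparc and Mmp2 between 0.84 and 1.32, and no value of stimulated against injured cord is filled.

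The fitted fold changes of Fn1, Col1a1 and Col3a1 were larger than those of Sparc and Mmp2. Fn1, Col1a1 and Col3a1 ranked at 102, 130 and 219 among the 5285 fold changes of injured against uninjured cord, ordered from the largest rise, and at 177, 168 and 132 for stimulated against uninjured cord. Sparc ranked at 1090 and 1062, and Mmp2 at 912 and 722. Of all genes tested, 16.6% had every injured library above every uninjured one and 16.0% had every stimulated library above every uninjured one. Col1a1, Col3a1, Fn1 and Sparc had this pattern in both comparisons, and Mmp2 in neither.

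**Figure D3:**
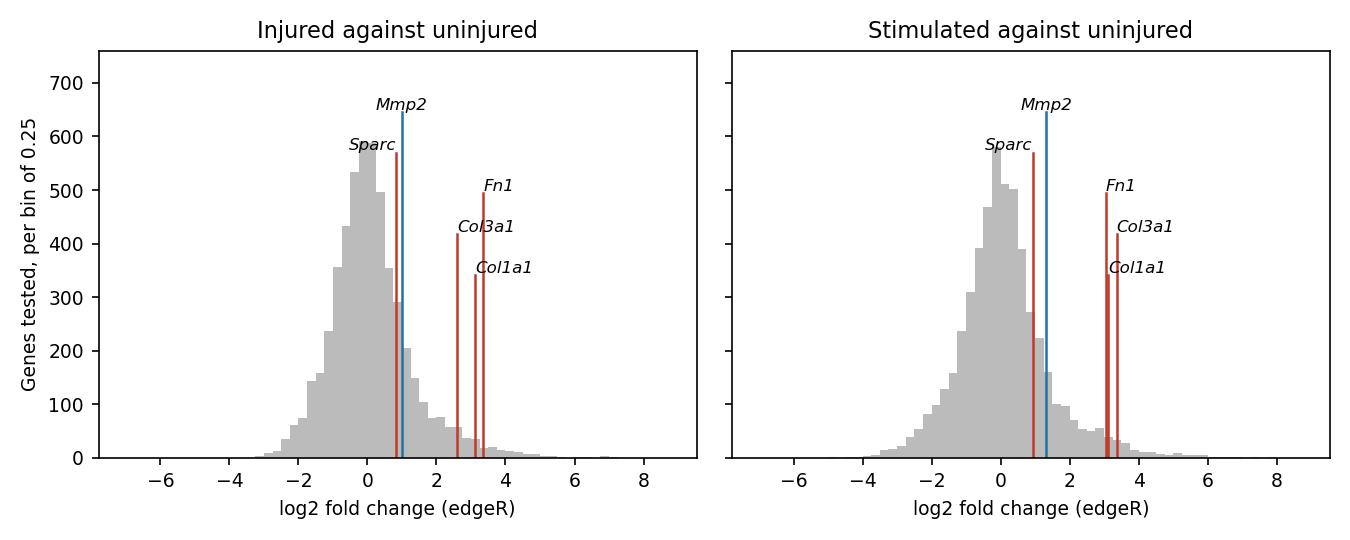
Distribution of log2 fold changes over the 5285 genes tested, in bins of 0.25, with red lines for scar matrix genes with adjusted p under 0.05 and blue lines for Mmp2, which did not pass. Col1a1, Col3a1 and Fn1 lie in the right tail of both distributions, and Sparc and Mmp2 lie on the right shoulder.

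The 6 genes together held 0.231% ± 0.0335 of all counts without injury, 0.929% ± 0.354 with injury alone and 1.13% ± 0.327 with injury and stimulation (mean ± SD, n = 4). Uninjured libraries ranged from 0.203% to 0.274%, injured ones from 0.619% to 1.40% and stimulated ones from 0.823% to 1.54%, so that the group with no injury did not overlap with the others. Summed over each group, Col3a1 held more counts than any other member in both groups with injury. It had 7507 counts in injured and 6736 in stimulated cord, against 5041 and 2705 for Sparc and 3437 and 1819 for Col1a1. Single injured libraries differed: replicate 4 had 1384 counts of Sparc and 1283 of Col3a1, and replicate 1 had 1464 and 1467. In uninjured cord the order of the sums was different, with 1890 counts for Sparc, 821 for Col3a1 and 289 for Col1a1.

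Spread among injured libraries was large for the collagens and small for Sparc. The coefficient of variation (SD over the mean of CPM) in injured cord was 60.7% for Col3a1, 57.9% for Col1a1, 44.6% for Fn1, 43.9% for Mmp2 and 12.9% for Sparc. Injured replicate 2 was highest for Col1a1, Col3a1, Fn1 and Mmp2 and only the third of the 4 for Sparc. Injured replicate 1, which lay toward uninjured cord on the first component, was lowest for Col1a1 but the second highest for Sparc. In stimulated cord, replicate 4 was lowest for Col1a1, Fn1, Sparc and Mmp2, and replicate 3 was lowest for Col3a1.

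The comparison of stimulated with injured cord asked whether the scar matrix genes at the injury site differed between animals with and without epidural stimulation. The group labels do not say whether injured animals without stimulation had electrodes placed. No member passed, and neither did any of the 5285 genes (0.0% called by edgeR, smallest adjusted p = 0.486, with 491 genes at unadjusted p under 0.05). DESeq2 called 2 genes and limma-voom with sample weights called 0, none of them a member. Col3a1 had the largest difference among the members, 6940 ± 2727 against 4079 ± 2476 CPM, with a log2 fold change of 0.77 (SE 0.43, adjusted p = 0.585 by edgeR, unadjusted p = 0.0906, limma-voom 95% interval -0.01 to 1.75). Its 4 stimulated and 4 injured values overlapped: 2 stimulated libraries were above every injured one and 3 injured ones were below every stimulated one. Without injured replicate 2, the highest injured library, the log2 fold change was 1.23 (adjusted p = 0.277 by edgeR), and on corrected counts it was 0.59. Over all alternatives run, its adjusted p was 0.277 to 0.859.

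The other members differed less between stimulated and injured cord. The log2 fold change of Col1a1 was -0.02 (SE 0.40, adjusted p = 0.992 by edgeR), with a limma-voom 95% interval of -0.74 to 0.97. For Fn1 it was -0.31 (SE 0.40, adjusted p = 0.812 by edgeR), with an interval of -1.16 to 0.45. For Sparc it was 0.09 (SE 0.27, adjusted p = 0.935 by edgeR), with an interval of -0.46 to 0.59, which, like that of Col1a1, leaves out a 2-fold change in either direction. For Mmp2 it was 0.33 (SE 0.48, adjusted p = 0.838 by edgeR), with an interval of -0.77 to 1.42. Intervals for Col3a1, Fn1 and Mmp2 hold changes of 2-fold or more, and that of Col1a1 ends just short of it. Equal levels were not tested, and were not shown for any member.

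Because Col3a1 and Col1a1 leaned differently between stimulated and injured cord, their ratio within each library was taken after the values were seen. Col3a1 counts were 4.57, 1.86, 1.49 and 6.38 times the Col1a1 counts in uninjured replicates 1 to 4. The ratio was 2.88, 2.45, 1.59 and 2.05 in injured replicates 1 to 4, and 3.80, 4.52, 2.17 and 5.01 in stimulated replicates 1 to 4. Stimulated replicates 1, 2 and 4 were above every injured library and replicate 3 lay among them, while the uninjured libraries spread over a wider range than either.

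The mean log2 ratio was higher by 0.75 in stimulated than in injured cord (exact two-sided permutation p = 0.0857, Benjamini-Hochberg adjusted p = 0.257 over 3 comparisons, n = 4 each, smallest possible p 0.0286). It differed by -0.45 between injured and uninjured cord (exact permutation p = 0.457, adjusted p = 0.686) and by 0.30 between stimulated and uninjured cord (exact permutation p = 0.686, adjusted p = 0.686). None of these differences had an adjusted p under 0.05 by this test. On counts corrected for repeated identifiers the difference between stimulated and injured cord was 0.76 (exact permutation p = 0.114, adjusted p = 0.343).

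**Figure D4:**
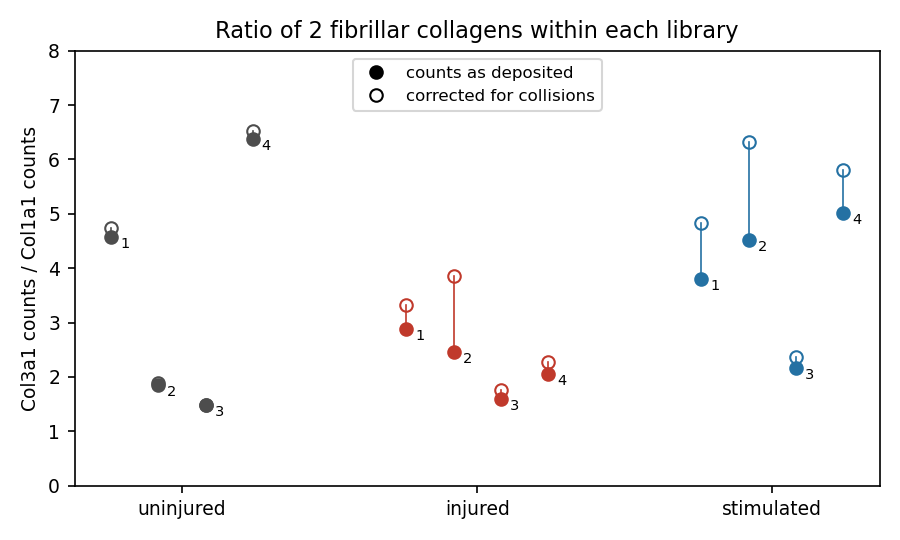
Ratio of Col3a1 to Col1a1 counts within each library, with filled points for the counts as deposited and open points for counts corrected for repeated identifiers, and replicate numbers beside the points. Injured libraries lie between 1.59 and 2.88 and stimulated libraries between 2.17 and 5.01 as deposited, and the correction raises the ratio of injured replicate 2 to 3.86.

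Among 3109 other tested genes with a mean count of 20 or more, the 2 whose pattern over the 12 libraries was most like the mean standardized level of the 5 members were ENSRNOG00000004610 (Pearson r = 0.977) and ENSRNOG00000021104 (r = 0.971). The r values describe likeness over libraries that share the same 3 groups, and 107 genes had an r of at least 0.9. ENSRNOG00000004610 was at 35.9 ± 11.1 CPM in uninjured, 336 ± 217 CPM in injured and 438 ± 142 CPM in stimulated cord (SD, n = 4). ENSRNOG00000021104 was at 60.2 ± 19.6, 324 ± 154 and 422 ± 166 CPM in the same order. Their symbols are not given in the tables used here.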

How the data were processed

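T9 cord from 12 libraries was profiled by CEL-Seq2 per the labels' protocols. The authors deposited 1 table of counts, whole numbers for each gene in each library. Tools listed in the submitters' processing notes are HISAT2 2.0.4 and HTSeq 0.6.0, and the listed build is Rnor_6.0; their roles are not stated. The sources used here do not name the annotation release, the strand setting or the use of molecular identifiers. How reads of overlapping or near-identical genes were treated is therefore not known.

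The analysis used edgeR 4.0.16 in R 4.3.3. Filtering by filterByExpr with the groups kept 5285 genes and 92.6% to 93.9% of each library's counts. TMM factors and a robust quasi-likelihood fit of group alone to the 12 libraries followed, with 9 residual degrees of freedom. P-values were adjusted by Benjamini-Hochberg over all genes tested, at a threshold of 0.05. SE is the log2 fold change over the square root of F. Intervals came from a separate fit by limma 3.58.1 with voom, so they need not centre on the edgeR fold changes. Ranks came from raw counts. Patterns were compared on log2 CPM with a prior count of 2. The fit was tested on simulated data. Single ratios were compared by exact permutation (70 arrangements). No fold is given for Col1a2, which entered only the fit with no filter.

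Alternatives were median-ratio factors, total counts, no filter or a minimum mean count of 20, fits of 2 groups at a time, a replicate block, DESeq2 1.42.0, weighted limma-voom, each library left out, thinning to 204836 counts and, chosen after seeing the data, collision-corrected counts. Members and lists were chosen with earlier results of these data known. All 6 members were named, and of the genes most like them the first 2 by identifier. The reference matched 0 identifiers to names, so the lists of other matrix genes and of cell type markers, fixed by symbol, were not analysed here. Promoter windows came from RefSeq (GRCr8), shortened to the 250 bases before the start.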

Additional observations from a re-analysis of the deposited data

Results flagged for a closer look

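Fn1 in injured replicate 2 stood apart from the other 3 injured libraries. It was at 471 CPM there and at 201 to 246 CPM in the others, and the gap to the nearest of them was 0.830 of the group's range, just above the 95% critical value of Dixon's test for 4 values. This was 1 of 15 sets of 4 values examined, and chance alone marks about 1 in 20. Col1a1 (3090 CPM) and Col3a1 (7575 CPM) were also highest in that library, without passing the same limit. Without it the log2 fold change of Fn1 in injured against uninjured cord was 3.0 (edgeR adjusted p = 0.000215).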

How the results depend on the processing

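Col1a1, Col3a1 and Fn1 kept direction and call in both comparisons with uninjured cord under all 22 alternatives each. Their log2 fold changes against uninjured cord without 1 library were 2.78 to 3.33, 2.11 to 2.93 and 3.0 to 3.84 for injured cord, and 2.88 to 3.30, 3.08 to 3.68 and 2.72 to 3.52 for stimulated cord. The calls of Sparc changed under 3 alternatives in injured and 2 in stimulated cord, all named with its values. Without 1 library, 3 to 4 members were called in injured and 3 to 5 in stimulated cord. Against uninjured cord the genes called without 1 library numbered 1369 to 1827 for injured and 1523 to 1916 for stimulated cord, and 1123 for injured cord with a mean count of 20, which left 3113 genes to test. Between stimulated and injured cord 28 genes were called with no filter, 2 by DESeq2 and 0 to 1 without 1 library; the cause was not tested. Differences near 0 in that comparison changed sign. Col1a1 was at 0.010 with median-ratio factors, 0.010 by DESeq2, 0.037 after thinning and -0.26 to 0.31 without 1 library. Sparc was at -0.061 with total counts, -0.030 with no filter, -0.0066 with corrected counts and -0.041 to 0.22 without 1 library. Fn1 was at -0.61 to 0.015 without 1 library, and the Col3a1 to Col1a1 log2 ratio of stimulated against uninjured cord at -0.034 to 0.67. Total-count scaling moved the median of all genes by 0.12 in injured against uninjured and -0.15 in stimulated against injured cord.

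Replicate numbers did not pair the libraries across all 3 groups. Same-numbered libraries of 2 groups had deviations from their group means that correlated at -0.34 to 0.43, over 0.1 in 7 of 12 pairs. Between injured and stimulated cord the correlations were positive for every number, at 0.07, 0.12, 0.28 and 0.29 for replicates 1 to 4. Between uninjured cord and either other group they were -0.34 to -0.21 for replicates 1 and 2. For replicates 3 and 4 they were 0.32 to 0.43 there. Of the 12 libraries, 4 were closest to their own number. How many unrelated numbers would give was not worked out, so this count does not decide whether numbers pair libraries. Whether some numbers share a batch was not tested. With the number as a replicate block 1801, 1911 and 0 genes were called in the 3 comparisons, Mmp2 passed in stimulated against uninjured cord (log2 fold change 1.29, edgeR adjusted p = 0.0363), Col1a1 was at 0.065 between stimulated and injured cord, and no other member's call changed. Mmp2 has no value under a mean count of 20 or after thinning, nor, with only the groups compared, against uninjured cord, since it failed those filters.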
